A study of Mus musculus with 3 samples.

Results

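The cytosolic ribosomal protein genes encode the protein subunits of the ribosome that translates nuclear messenger RNA. They were chosen by symbol: names of the form Rpl or Rps followed by a number, with at most a final a, l or x, together with Rplp0, Rplp1, Rplp2 and Rpsa. The rule found 81 of the 27998 genes in the matrix, 50 of the large subunit and 31 of the small subunit. Of these, 80 had at least 1 unique molecular identifier (UMI, a tag that counts captured RNA molecules) and 78 had at least 1000. Rpl10l had none, which allows up to 0.228 counts per 1000000 UMIs (CPM, the level of 3 counts, counting error only).

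The cells were sorted with an antibody to Cd11b, an integrin subunit on macrophages, monocytes and neutrophils, from the brain without the cerebellum of 5-month-old female C57BL6J mice, and the labels call them microglia. The groups were untreated mice (Ctrl, 1 animal), mice fed PLX5622 at 1200 mg/kg for 14 days (D0, 2 animals pooled) and mice that came off that diet, after 14 days of it, and ate control food for 2 days (D2, 1 animal). PLX5622 inhibits Csf1r, a receptor that microglia need to survive, and is given in the diet to the whole animal. Each group was 1 library, and the deposited barcodes end in 1, 2 or 3 with nothing in the sources used here that ties a number to a group, so the libraries are called 1, 2 and 3, the groups were not compared, and there are no replicates and no tests.

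Ribosomes are built from ribosomal RNAs and a fixed set of proteins, so their protein genes are usually expressed together. Most vertebrate ribosomal protein mRNAs begin with a run of pyrimidines at the cap, the terminal oligopyrimidine (TOP) tract, through which the mTORC1 pathway controls their translation and stability. A few members have paralogs that can stand in for them: Rps27l for Rps27, Rpl3l for Rpl3 in striated muscle, and Rpl10l and Rpl39l for Rpl10 and Rpl39 in the testis. Microglia are quiescent resident macrophages, while dendritic cells, monocytes, neutrophils and natural killer (NK) cells enter the brain and its borders from the blood.

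Start regions were searched for such a run. RefSeq start regions (GRCm38.p6) were matched for 60 members, taking the first start listed for a gene. A run of at least 8 C or T bases touched positions -5 to 10, counted from 1 at the annotated start, in 22 of the 60, or 36.7%. The share was 11.1% in the start regions of 27025 genes. On the same strand, a run of at least 8 G or A bases touched those positions in 3.33% of the members and in 12.6% of all genes. Such a run reads as C or T on the opposite strand. The 8 sequences below run from 10 bases before the start to 20 bases after it, across the proximal promoter and the first bases of exon 1. The first 3 and Rps6 are examples of members with a run, and the others are members named in the comparisons between cell types. Capitals mark the C or T run, and a match describes the letters only.
Rpl27a (chr7:109519185-109519214, plus strand): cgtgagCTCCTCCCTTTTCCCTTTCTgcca
Rpl15 (chr14:18270967-18270996, minus strand): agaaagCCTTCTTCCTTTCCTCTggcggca
Rpl28 (chr7:4792955-4792984, plus strand): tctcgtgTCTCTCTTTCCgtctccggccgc
Rps18 (chr17:33955646-33955675, minus strand): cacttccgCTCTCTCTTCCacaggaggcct
Rps6 (chr4:86857348-86857377, minus strand): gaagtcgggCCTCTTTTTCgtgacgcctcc
Rps27 (chr3:90213629-90213658, minus strand): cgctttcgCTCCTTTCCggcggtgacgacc
Rps27l (chr9:66946076-66946105, plus strand): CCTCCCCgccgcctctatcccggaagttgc
Rpsa (chr9:120127756-120127785, plus strand): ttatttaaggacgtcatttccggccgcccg
The run of Rps27 crosses the annotated start, from position -2 to 7. The run of Rps27l lies before it, from -12 to -4, so its first 2 bases fall outside the printed window. Rpsa has no such run there. Members lie on 19 chromosomes, with 14 on chromosome 7 and 4 on the X chromosome (Rpl10, Rpl36a, Rpl39 and Rps4x).

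After filtering, 2137 cells remained, with a median depth per cell of 3660, 6215 and 8143 UMIs in libraries 1, 2 and 3. No barcode was shared between libraries. Cells were clustered without the 81 members and named from markers, with the ending "-like". Itgam, which encodes Cd11b, had a UMI in 56.2%, 30.4% and 52.5% of cells of the 3 libraries, and the sort also held NK-like and dendritic-like cells. The neutrophil-like cluster was a mixture, described below. The monocyte-like cells of library 2 had 25692 CPM from 10 dendritic markers, against 5321 in those of library 3. Monocyte markers summed to 9863 and 5226 CPM in these cells of libraries 2 and 3, below the dendritic sum in each. Dendritic-like cells of library 2 had 1083 CPM of monocyte markers and 48402 CPM of dendritic markers. The name monocyte-like is thus uncertain in library 2. The cluster named border-associated-macrophage-like had 3252 CPM from the 10 markers of that name in 101 cells of library 1. Microglia-like cells of library 1 had 189 CPM from these markers. The 101 cells also had 18825 CPM of microglia markers and 10150 CPM of dendritic markers. The cluster's 20 cells of library 2 had 108.65 CPM from the markers of its name, with F13a1, Cd163, Lyve1, Cbr2, Folr2 and Siglec1 at 0. Microglia-like cells of that library had 122 CPM from the same markers, and the 20 cells had 12636 CPM of microglia markers. The markers thus go against the name in library 2, where the 20 cells are called the macrophage cluster.

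The members took 19.4% of all UMIs, of which 56.6% came from large-subunit genes. By library the value was 14.4% in the first, 24.9% in the second and 22.98% in the last. Rps29, a zinc-binding protein of the small-subunit head, had the most UMIs (79628). Others among the most abundant were Rpl13 (62036), Rps23 (56015) and Rps14 (54238), and the first 5 in rank gave 12.4% of member UMIs. The fewest among detected members were in Rpl39l (35), Rpl3l (40), Rpl6l (3102), Rps27l (5866) and Rpl5 (9978). Counts at 3′ ends depend on how well each transcript is captured, so this order is not an order of expression.

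The share set the cell classes apart, with dendritic-like cells highest in each library among classes of at least 20 cells. In library 1 members took 28.5% of UMIs in 35 dendritic-like cells (95% exact binomial interval 28.4 to 28.7), 15.4% in 101 border-associated-macrophage-like cells and 13.3% in 1071 microglia-like cells (13.2 to 13.3). The intervals cover counting error only. The spread between cells was wider: the middle 50% of cells ran from 24.6% to 31.8% in the dendritic-like class and from 9.59% to 14.9% in the microglia-like class, without overlap.

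The range was smaller in library 2. The 175 dendritic-like cells had 29.7%, the 79 NK-like cells 25.4%, the 54 migratory-dendritic-like cells 24.1% and the 79 monocyte-like cells 22.5%. The 32 non-classical-monocyte-like cells had 19.8%, the 20 cells of the macrophage cluster 19.1% and the 46 microglia-like cells 18.6%. The last 2 values differed by 0.465 percentage points, with middle ranges that overlapped almost wholly (16.0% to 21.7% and 14.5% to 21.8%). In library 3 the 64 dendritic-like cells had 26.2%, the 33 NK-like cells 24.5%, the 104 monocyte-like cells 23.3% and the 42 non-classical-monocyte-like cells 21.9%. Neighbours in these orders overlapped in their middle ranges, for example 21.3% to 28.2% in the NK-like and 21.3% to 25.2% in the monocyte-like cells of library 3.

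**Figure D1:**
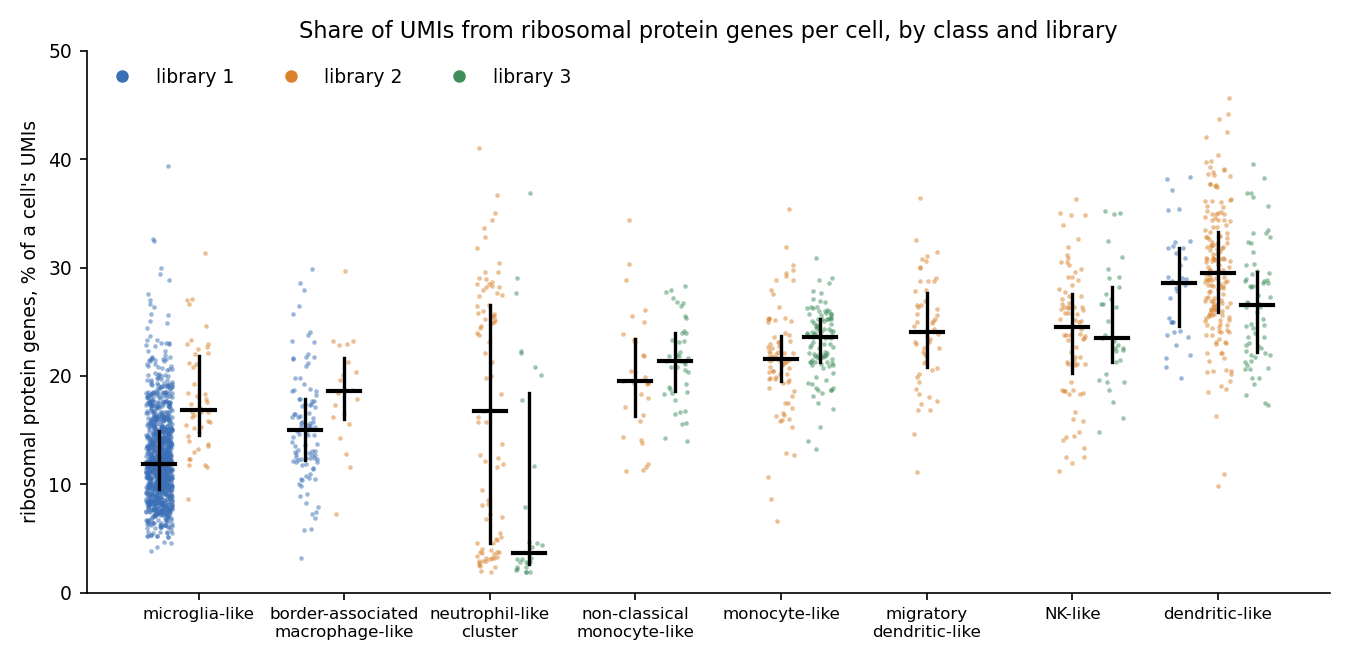
Percent of each cell's UMIs from the 81 ribosomal protein genes (y axis, linear) by marker-defined class (x axis) and library (colour), for groups of at least 20 cells; points are cells, bars show the median and the middle 50% of cells. Dendritic-like cells of all 3 libraries sit highest, microglia-like cells of library 1 lowest apart from the neutrophil-like cluster, and the neutrophil-like cluster splits into a low and a high set; the 20 library 2 cells drawn as border-associated-macrophage-like lack most markers of that name.

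Depth did not order the classes in the same way, since NK-like cells of library 2 had a median of 3092 UMIs and microglia-like cells of that library 3126.5. After thinning each cell to 2000 UMIs the shares were 29.5% in 175 dendritic-like, 25.3% in 67 NK-like and 18.4% in 40 microglia-like cells of library 2, where the 20 cells of the macrophage cluster were at 18.1%, below the microglia-like value. The 1004 microglia-like cells of library 1 were at 12.7%. Thinning leaves each cell's expected share unchanged, drops cells under 2000 UMIs and gives the rest equal weight. The thinned shares are therefore no test of whether share goes with depth. Within a class the share went with depth in some groups more than in others. Spearman's rho across cells, given as a description of cells that share a library, was 0.39 in the microglia-like cells of library 1 and of library 2, 0.68 in the NK-like cells of library 2 and 0.05 in the dendritic-like cells of library 2.

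Member by member, dendritic-like cells were above microglia-like cells for nearly the whole set. In library 1, 76 of the 78 members tested were higher by 1.5-fold or more in CPM and none was lower by that much. Across all 7224 genes tested, 12.4% were higher by 1.5-fold and 50.3% lower. The median log2 ratio was 1.15 over members and -0.59 over all genes. Genes needed 50 UMIs over both groups, which held 316137 and 4776352 UMIs, so a gene could pass through microglia-like cells alone. The all-gene values may reflect this in part, which was not tested. In library 2, 51 of 78 were higher by 1.5-fold and none lower, against 35.7% and 24.2% of 3364 genes. The medians there were 0.66 for members and 0.22 for all genes, and with all ratios shifted to put the median gene at 0, 25 members passed 1.5-fold.

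Rpsa, the laminin-receptor protein of the small subunit, showed the largest ratio in library 1. Its level was 2546 CPM in dendritic-like and 643 CPM in microglia-like cells, a log2 ratio of 1.98 (exact 95% interval 1.87 to 2.10). In library 2 the levels were 2904 and 1086 CPM, a log2 ratio of 1.42 (1.20 to 1.64). The small-subunit proteins Rps18 and Rps19 were among those nearest to it, at log2 ratios of 1.67 and 1.68 in library 1 and 1.21 and 1.07 in library 2. Each is a core protein of the small subunit, and Rps19 is the gene most often mutated in Diamond-Blackfan anaemia.

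Rps29 and Rplp1 stood at the other end. Rps29 was at 8398 CPM in dendritic-like and 6902 CPM in microglia-like cells of library 1, a log2 ratio of 0.28, and at 6195 and 6504 CPM in library 2, a log2 ratio of -0.07 (-0.16 to 0.02). Both levels were high in both classes, and the ratios were small beside the members' medians. The ribosomal stalk, which recruits elongation factors, is formed by Rplp0, Rplp1 and Rplp2, and its 3 genes had unlike ratios. In library 1 the log2 ratios were 1.58 for Rplp0, 0.80 for Rplp2 and 0.30 for Rplp1. In library 2 they were 1.10 for Rplp0, 0.51 for Rplp2 and -0.16 (-0.27 to -0.06) for Rplp1. In both libraries the base protein Rplp0 was the stalk gene with the larger ratio and Rplp1 the smaller.

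**Figure D2:**
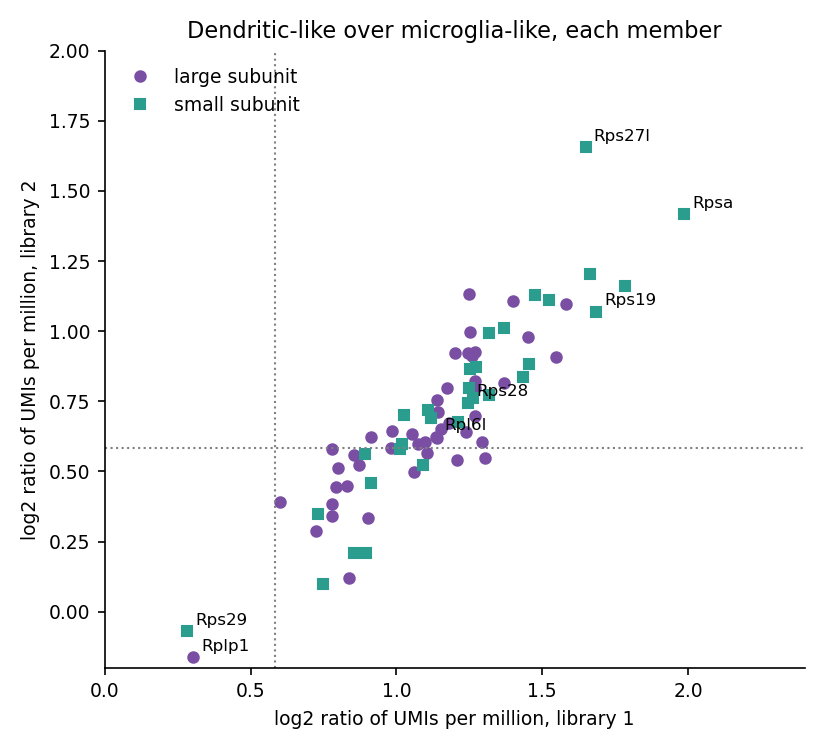
Log2 ratio of CPM in dendritic-like over microglia-like cells for each of 78 members, in library 1 (x axis) and library 2 (y axis); circles are large-subunit and squares small-subunit genes, and dotted lines mark 1.5-fold. Rpsa and Rps27l lie at the upper right, and Rps29 and Rplp1 at the lower left with log2 ratios of 0.28 and 0.30 in library 1.

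As a share of member UMIs, which removes the overall difference, 68 of 78 members differed between these classes in the same direction in both libraries, and 3 passed 1.5-fold in both. Pearson's r across the 78 genes was 0.90, a description over genes that are not independent replicates. For the border-associated-macrophage-like cluster over the same microglia-like cells, 53 of 78 went the same way in both libraries. There r was 0.54 and none passed 1.5-fold in both. No such count was taken over all genes. The libraries share no cells but were prepared in 1 assay, per the labels. Small-subunit members had a median log2 ratio of 1.25 and large-subunit members 1.14 in library 1, and 0.76 and 0.62 in library 2.

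Other classes differed less from microglia-like cells. Monocyte-like cells of library 2 had 9 members higher and 1 lower by 1.5-fold, below the 38.3% of all genes that were higher and the 18.7% that were lower. With the median gene set to 0 the split became 2 higher and 4 lower. NK-like cells of library 2 had 23 higher and none lower, against 45.5% and 21.4% of all genes, and with the median gene at 0 the split was 3 higher and 5 lower. Rplp1 was at 3003 CPM in monocyte-like, 3998 CPM in NK-like and 4930 CPM in microglia-like cells of library 2. These comparisons and the dendritic-like one share the same 46 microglia-like cells, so their values stand side by side only. Border-associated-macrophage-like cells are named after the macrophages of the meninges and vessels. They had no member past 1.5-fold in library 1 (8.45% of all genes higher, 11.2% lower), and the members' median was 0.21. The macrophage cluster of library 2 had none either (15.1% and 13%), with a median of 0.04.

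The libraries also differed within a class. In microglia-like cells the share was 13.3% in library 1 and 18.6% in 46 cells of library 2, a difference of 5.33 percentage points. The class drew on 3 clusters in unlike parts, with 498, 251 and 322 cells of library 1 and 8, 6 and 32 of library 2. Of 78 members 25 were higher in library 2 by 1.5-fold and none was lower, against 9.36% of 7107 genes higher and 37.3% lower. The median log2 ratio was 0.53 over members and -0.30 over all genes, and with the median gene at 0 the count was 69. Rpl32 had the largest ratio, at 3710 CPM in library 2 and 2072 CPM in library 1 (log2 ratio 0.84), while Rps28 (1336 and 1434 CPM) and Rps29 (6504 and 6902 CPM) did not differ beyond counting error. Dendritic markers summed to 622 CPM in these cells of library 2, with Clec10a, Flt3, Tnip3 and Ciita at 0, and to 153 CPM in library 1, with Tnip3 at 0, against 48402 CPM in dendritic-like cells of library 2. Without the microglia-like cells that had 0.3% or more of UMIs from dendritic markers the difference was 5.35 percentage points. In libraries 1 and 2 the microglia markers summed to 35591 and 23588 CPM, neutrophil markers to 215 and 757 CPM, and mitochondrial counts were 1.13% and 1.89% in the median cell. Their part in the difference was not tested.

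The macrophage cluster had 15.4% in library 1 and 19.1% in library 2, where its cells differ in their markers as given above, with 8 members higher by 1.5-fold and none lower (8.14% and 32.7% of all genes). Dendritic-like cells had 28.5% and 29.7%, with none higher and 1 lower (11.1% of all genes in each direction). Microglia markers summed to 4425 and 653 CPM in these dendritic-like cells, and neutrophil markers to 104 and 720 CPM, and their part was not tested. In each of the 8 named sets of clusters library 1 was below library 2, although library 1 held only 2 to 15 cells in 5 of them. From library 2 to library 3 the share was lower by 3.53 percentage points in dendritic-like cells and higher by 0.842 in monocyte-like cells, with 3 members lower and none higher (7.86% and 14.4% of all genes) and with 2 higher and 1 lower (27.1% and 11.3%). With the median gene at 0 the monocyte-like split was 1 higher and 5 lower. Non-classical-monocyte-like cells had 2 of 77 members higher and none lower (16.5% and 9.97%). Endothelial markers in that class summed to 3119 CPM in library 2, with 5 of 5 detected, and to 69.2 CPM in library 3, with Flt1 at 0, and their part was not tested. NK-like cells had none higher and 1 lower (5.69% and 6.71%). Library 3 held 2 microglia-like cells, at 32.7%, too few to describe that class.

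The difference between libraries went with the length of the members, to an unequal degree. The median member with a coding sequence under 300 bases held a smaller part of member UMIs in the later-numbered library. This held in each of 7 comparisons within a class, with medians from -0.12 to -0.27 on the log2 scale over 10 genes. Of the 10, 7 were below 0 in monocyte-like cells, 10 in microglia-like cells and 9 in each other comparison. The comparisons draw on the same pairs of libraries, 2 over 1 and 3 over 2, so they are not separate observations. The 67 longer members had medians from 0.02 to 0.06. Pearson's r with log2 length, across genes and as a description, was 0.63 in dendritic-like cells (library 2 over 1), 0.46 in microglia-like cells and 0.21 in non-classical-monocyte-like cells (library 3 over 2). Rps29, with 168 coding bases, was at 8398, 6195 and 4738 CPM in dendritic-like cells of libraries 1, 2 and 3. Rps28, with 207 bases, was at 3397, 2241 and 1374 CPM in the same cells.

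**Figure D3:**
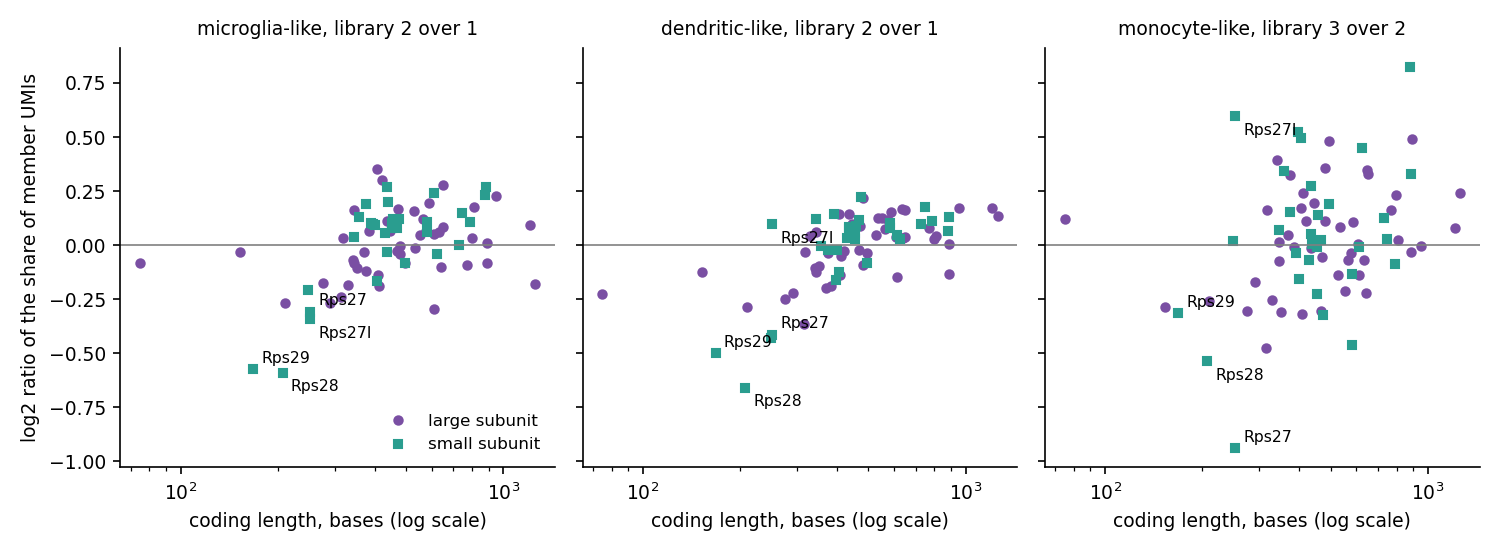
Log2 ratio of each member's share of member UMIs between 2 libraries (y axis) against its coding length in bases (x axis, log scale), in microglia-like and dendritic-like cells (library 2 over 1) and monocyte-like cells (library 3 over 2); circles are large-subunit and squares small-subunit genes. Short members such as Rps28 and Rps29 lie below 0 in all 3 panels, and Rps27 lies lowest among monocyte-like cells.

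Rps27 and Rps27l, paralogs of the same small-subunit protein, parted between classes. Rps27l, which p53 is known to induce, was at 2845 CPM (2686 to 3011) in the 54 migratory-dendritic-like cells of library 2 and at 561 CPM in the dendritic-like cells of that library, a log2 ratio of 2.34 (2.22 to 2.47). Rps27 itself was at 6038 and 5838 CPM, a log2 ratio of 0.05. Per 100 UMIs of Rps27 there were 47.1 of Rps27l in migratory-dendritic-like cells and 9.603 in dendritic-like cells. The 2 migratory-dendritic-like cells of library 1 gave 3222 CPM of Rps27l and the 3 cells of library 3 gave 1458 CPM. After thinning to 2000 UMIs, 96.3% of 54 migratory-dendritic-like cells of library 2 had an Rps27l UMI (87.3 to 99.5), against 65.7% of 175 dendritic-like cells and 12 of 40 microglia-like cells.

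Among whole classes with at least 20 cells Rps27l was lowest in microglia-like cells, at 160 CPM in library 1 and 177 CPM in library 2. Border-associated-macrophage-like cells of library 1 had 219 CPM, the macrophage cluster of library 2 262 CPM, and NK-like cells 279 and 298 CPM in libraries 2 and 3, neighbours that overlap in their counting intervals. Non-classical-monocyte-like cells had 305 and 467 CPM, monocyte-like cells 459 and 721 CPM, and dendritic-like cells 503, 561 and 655 CPM in the libraries with at least 20 cells. Its share of member UMIs ranged 12.4-fold over 16 groups of class and library, while the median member ranged 1.53-fold and 66 of 78 stayed under 2-fold. The next were Rpsa (3.05-fold), Rps29 (3.00), Rps19 (2.79) and Rps28 (2.60). The steadiest were Rpl11 (1.19-fold) and Rps15 (1.21), with Rpl22 (1.24) and Rps10 (1.25) close to them.

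**Figure D4:**
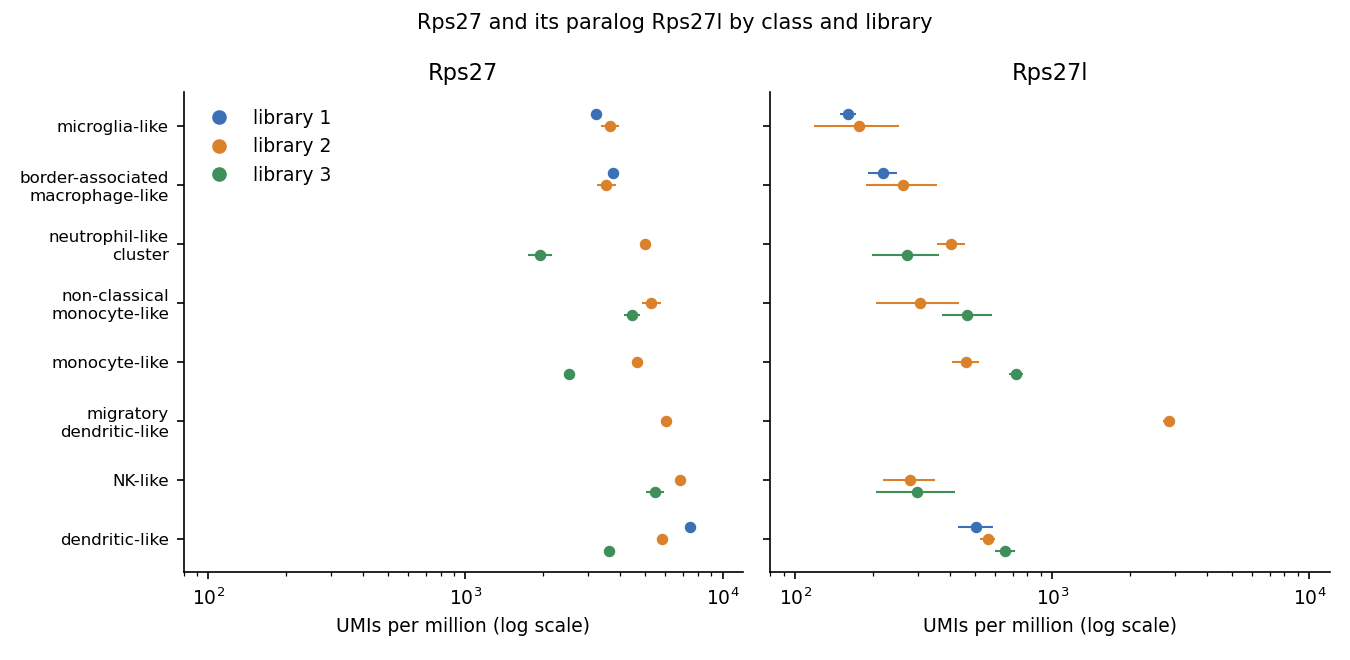
CPM (x axis, log scale) of Rps27 and Rps27l in each class and library with at least 20 cells; points are summed counts and bars exact Poisson 95% intervals. Rps27l stands at 2845 in migratory-dendritic-like cells and at 160 in microglia-like cells of library 1, while Rps27 spans a narrower range.

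Rps27 was lower in library 3. It was at 7465, 5838 and 3611 CPM in dendritic-like cells of libraries 1, 2 and 3, and at 4667 and 2524 CPM in monocyte-like cells of libraries 2 and 3, a log2 ratio of -0.89 (-0.96 to -0.81). In the same monocyte-like cells Rps2, a small-subunit protein at the mRNA entry channel, was at 2192 CPM in library 2 and 4027 CPM in library 3 (log2 ratio 0.88), and Rps27l at 459 and 721 CPM (0.65). The monocyte-like cells differ in dendritic markers between the libraries, as given above, and their part was not tested. A further row of the matrix, Rps27rt, a near-identical copy of Rps27 with 3011 UMIs, could share reads with it, so the level of Rps27 is uncertain to that extent.

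The testis and muscle paralogs were close to the detection limit. Rpl3l had 8 UMIs in 4 of 32 non-classical-monocyte-like cells of library 2 and 9 UMIs in 7 of 42 cells of library 3, or 81.3 and 51.9 CPM. In the microglia-like cells of library 1 it had 2 UMIs, or 0.419 CPM. After thinning, 4 of 27 and 4 of 41 non-classical-monocyte-like cells had a UMI (14.8% and 9.76%) and 0 of 1004 microglia-like cells of library 1. The exact upper bound there is 0.367% of cells with a UMI at this depth, which is no limit on cells that express the gene. The whole neutrophil-like cluster, a mixture as described below, had 9 UMIs of Rpl3l in library 2. Rpl39l had 21 UMIs in 7 of 104 monocyte-like cells of library 3, 10 in microglia-like cells of library 1, and 1 in the neutrophil-like cluster of library 2. Rpl3 and Rpl39, in contrast, were at 1968 and 2412 CPM in the non-classical-monocyte-like cells of library 3.

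Migratory-dendritic-like cells, dendritic cells that have switched on Ccr7 to travel to lymph nodes, had a lower member share than dendritic-like cells of library 2, 24.1% against 29.7%. By 1.5-fold 14 members were lower and Rps27l alone was higher (32.9% and 17.4% of 3627 genes). Rpl12 was at 842 and 1636 CPM, Rpl4 at 1570 and 2931 CPM and Rpl10a at 1451 and 2601 CPM, all proteins of the large subunit. Rps19 went the other way, at 9375 and 6572 CPM. With the median gene set to 0 the counts were 4 lower and 2 higher. Non-classical-monocyte-like cells had 7 members lower and none higher than monocyte-like cells in library 2 (22.0% and 18.5% of all genes) and 6 lower and 1 higher in library 3 (31.2% and 15.3%). Rps27 was that 1 member, at 4431 against 2524 CPM, and Rps2 was the lowest, at 1887 against 4027 CPM. With the median gene set to 0 these splits were 5 lower and none higher, and 2 in each direction.

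The neutrophil-like cluster had the widest spread of member share, from 1.95% to 41.0% of a cell's UMIs in library 2. It divided by the dendritic markers that its cells carried. In 52 cells of library 2 with under 0.3% of UMIs from dendritic markers, members took 9.69%, with a median per cell of 5.04%, and in 21 such cells of library 3 they took 5.76%, with a median of 2.88%. Neutrophil markers made up 27.9% and 53.7% of UMIs in the median cell. In the 37 and 7 other cells of the cluster the member share was 27.9% and 25.5%. Their median cell had 2.30% and 1.68% of UMIs from neutrophil markers and 3.74% and 3.997% from dendritic markers. Their median depth in library 2 was 10205 UMIs, against 3702 in the 52 cells. Whether these cells are doublets was not tested.

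Against monocyte-like cells, all 78 members were lower by 1.5-fold in the 52 neutrophil-like cells of library 2 with few dendritic markers and in the 21 of library 3. Of all genes, 48.2% and 73.2% were lower by that much, and 12.5% and 7.11% higher. The median log2 ratio was -1.22 over members and -0.54 over all genes in library 2, and -2.08 and -1.43 in library 3. Rps27l had the lowest ratio in both libraries, at 88 against 459 CPM and 91 against 721 CPM. With the whole cluster, 71 of 78 members were lower by 1.5-fold and none higher in library 3 (62.4% and 7.78% of all genes), and none was past it in library 2 (27.2% and 8.78%). With the median gene at 0, the library 3 split was 1 lower and 1 higher.

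**Figure D5:**
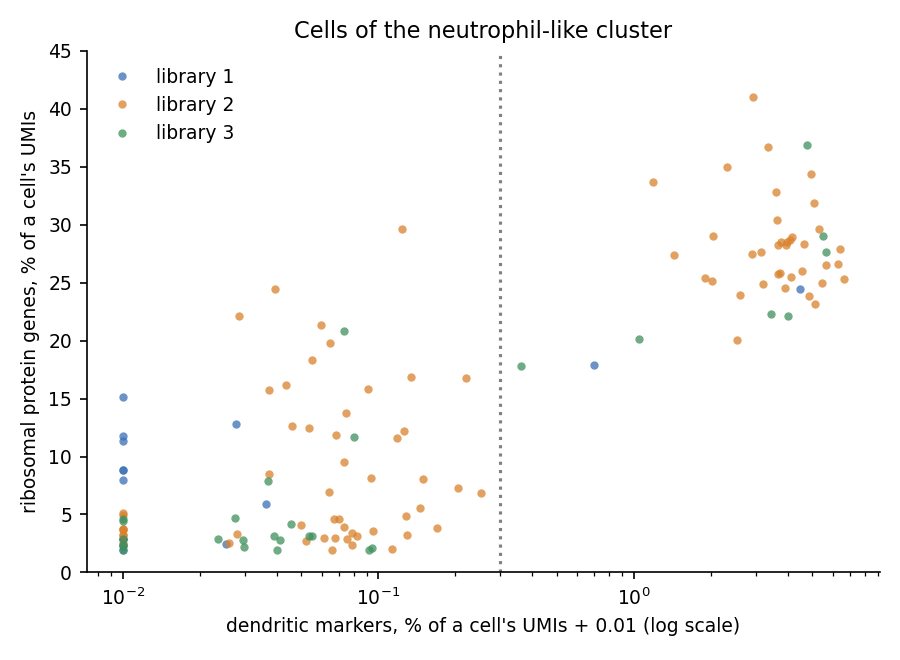
Percent of a cell's UMIs from ribosomal protein genes (y axis) against percent from dendritic markers plus 0.01 (x axis, log scale) for the 132 cells of the neutrophil-like cluster, coloured by library; the dotted line marks 0.3%. Cells right of the line have high member shares (27.9% of summed UMIs in library 2), and those left of it run from 1.89% to 29.6%.

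Cycling cells had a lower member share than other cells of their class in the 3 comparisons with at least 18 of them. A cell was called cycling when, after thinning, it held 3 or more of 20 proliferation genes, which gave 2, 23 and 55 cells in libraries 1, 2 and 3. In monocyte-like cells of library 3 members took 22.8% of UMIs in 30 cycling cells and 23.6% in 74 others, with median depths of 18260 and 9891 UMIs. Among cells between 12913 and 22929 UMIs, the middle range of depth of the cycling cells, the shares were 22.5% in 14 cycling and 24.6% in 15 other cells. In dendritic-like cells the shares were 25.1% in 18 cycling and 30.5% in 157 other cells of library 2, and 24.0% in 21 and 28.0% in 43 of library 3. The differences were -0.813, -5.40 and -3.95 percentage points. The dendritic-like cycling and other cells had median depths of 12816 and 8211 UMIs in library 2 and 13825 and 8114 in library 3. Between 11805 and 15132 UMIs, library 3 held 11 cycling dendritic-like cells at 24.9% and only 2 others, too few to match depth. A cluster led by cell-cycle genes such as Top2a held 19 dendritic-like cells in each of these libraries, at 25.4% and 23.8%. It was close to the cycling cells in number and share, and the groupings were not separated. Over all classes of library 3 together the values were 23.06% in cycling and 22.95% in other cells, groups that differ in their mix of classes.

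Among members, Rps27l alone was past 1.5-fold in cycling monocyte-like cells of library 3, at 915 against 600 CPM (log2 ratio 0.61), and none was lower (18.6% of all genes higher, 12.3% lower). Rps27 was the lowest, at 2157 against 2755 CPM. No member was past 1.5-fold in cycling dendritic-like cells of library 3 (14.7% and 7.65% of all genes), where Rps27 was again lowest, at 2898 against 4196 CPM. Ribosome biogenesis factors, which process ribosomal RNA and assemble subunits, differed from the members. In cycling monocyte-like cells 11 of 20 tested were higher by 1.5-fold and none was lower, with a median log2 ratio of 0.69, against -0.04 for members and 0.11 for all genes. Ncl, which encodes nucleolin, was at 603 against 249 CPM, and Nolc1, a nucleolar chaperone, at 81.2 against 30.4 CPM. Between libraries 3 and 2 of monocyte-like cells, 19 of 22 biogenesis factors were higher, with a median of 1.03, while the members' median was 0.07. Of all genes 27.1% were higher, with a median of 0.23. Cycling cells were 30 of 104 in library 3 and 2 of 79 in library 2, dendritic markers differed as given above, and their part was not tested.

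Microglia-like cells of library 1 held a cluster of 251 cells led by stress and immediate early genes such as Egr1 and Tnf. Members took 14.6% of UMIs there and 12.5% in the 820 other cells, with a median depth of 5818 UMIs in the cluster. The other cells lay in clusters of 498 and 322 cells, with median depths of 3296.5 and 2798.5 UMIs. Across the class the share went with depth (Spearman's rho 0.39), and the part of depth in the difference was not tested. None of 78 members was past 1.5-fold (4.0% of 7030 genes higher, 4.67% lower). The median log2 ratio was 0.22 over members, with a middle range from 0.18 to 0.25. Over all genes it was -0.07, with a middle range from -0.26 to 0.14.

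Other genes with known TOP tracts stood beside the members. Of 12 such genes, 12 were higher by 1.5-fold in dendritic-like than in microglia-like cells of library 1, with a median of 1.09, against 12.4% of all genes and a median of -0.59. In library 2 there were 6, with a median of 0.57, against 35.7% of all genes and a median of 0.22. Gnb2l1, which encodes the ribosome-bound scaffold Rack1, was at 1246 against 403 CPM in library 1 and 1176 against 580 CPM in library 2. Of 6 elongation factors 5 and 3 were higher, and the TOP list shares some of them. Fau, which encodes a small-subunit protein fused to a ubiquitin-like domain and was missed by the symbol rule, was at 5877 against 3292 CPM in library 1. Mitochondrial ribosomal proteins serve a separate ribosome. In library 1, 8 of 73 tested were higher and 13 lower, with a median of 0.07, against 12.4% and 50.3% of all genes. In library 2, 20 of 53 were higher and 3 lower, with a median of 0.37, against 35.7% and 24.2% of all genes. In microglia-like cells of library 2 over library 1, 5 of 12 TOP genes were higher and none lower, with a median of 0.56. Of 73 mitochondrial ribosomal proteins 9 were higher and 21 lower, with a median of -0.10. Of all genes 9.36% were higher and 37.3% lower, with a median of -0.30.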

How the data were processed

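Single-cell libraries were made with 10x Chromium 3′ v2 reagents, per the labels' protocols. The authors deposited whole-number UMI counts for 2149 cells in 1 matrix, made with Cell Ranger 2.0.1 on mm10 per the submitters' processing notes. How reads that map to several near-identical ribosomal protein copies were counted is not given in the sources used here, and such rows are uncertain. The libraries held 6410990, 4022293 and 2831118 UMIs in 1263, 599 and 287 cells. With scanpy 1.11.5, cells needed 500 genes and at most 10% mitochondrial counts. Scrublet at an expected rate of 5% removed 7 cells (0.327%), so few that it is taken not to have worked, and doublets may remain. Clusters (2000 variable genes without members, 30 components, 15 neighbours, Leiden resolution 0.5) needed 3 markers. Those under 20 cells were left unnamed, a rule set after the clusters were seen.

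Counts were summed per class and library. CPM ratios used genes with at least 50 UMIs over both groups and 1 added count, and were called at 1.5-fold. Where 1 group held far more UMIs, a gene could pass through that group alone. All-gene shares and medians of such comparisons may lean toward that group. Intervals are exact (Clopper-Pearson, Poisson or conditional binomial), at 95%, and cover counting error only. Calls were also run on counts simulated from dendritic-like and microglia-like cells of library 2 with counting error only. Such counts hold no variation between cells or libraries, so they do not test the calls against it. Coding lengths are from GENCODE vM21. Named members were the 5 with most and the 5 with fewest counts, paralogs, the stalk genes and Rpsa, the 5 highest and lowest ratios of a comparison, and the 5 most and least variable shares, of which a selection is printed. Other genes named are the 3 highest and lowest of a translation list. Members and lists were chosen with earlier results of these data known. Some genes, and shares with further genes added to the members, are not reported here.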

Additional observations from a re-analysis of the deposited data

Results flagged for a closer look

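The ribosomal protein share moved in opposite directions between libraries 2 and 3 in different classes, and this difference was not tested, since each class has 1 library on each side. Library 3 minus library 2 was -3.53 percentage points in dendritic-like cells and -0.97 in NK-like cells, and 0.842 in monocyte-like and 2.12 in non-classical-monocyte-like cells. The 2 positive values change sign under some of the settings given below.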

How the results depend on the processing

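No paired analysis was possible because each group is 1 library and no test was made. The share difference of dendritic-like over microglia-like cells in library 2 was 11.1 percentage points. It was 10.3 at resolution 1.0, 10.4 with members kept in clustering, 9.85 with cells named one by one, 11.8 at 5% mitochondrial counts, 10.8 with doublets kept, 12.6 as medians, 11.9 without the cell-cycle-led dendritic-like cluster and 15.2 without mitochondrial genes, Malat1 and the 50 most abundant other genes in the denominator. The microglia-like difference between libraries 2 and 1 was 5.33. In the same order of settings it was 4.82 at resolution 1.0, 4.54 at 5% mitochondrial counts, 4.98 as medians and 8.08 without the abundant genes. It was also 4.95 from 1000 genes, 5.53 without mitochondrial genes alone, 5.69 when thinned and 5.96 without the stress-led cluster. The cycling difference in monocyte-like cells of library 3 was -0.813. It was -0.296 at resolution 1.0, -1.03 at 5% mitochondrial counts, -0.505 with doublets kept, -1.25 and -0.4998 with cycling from 2 and 5 genes, -0.481 called without thinning, -1.79 without the abundant genes, -2.01 as medians and -1.34 when thinned. Thinning a share changes which cells count and their weight, so the thinned values are no check on depth.

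Members higher in dendritic-like cells of library 2 went from 51 to 11 at 2-fold and 25 with the median gene at 0. In microglia-like cells of library 2 over 1 the count went from 25 to 0 at 2-fold, 69 with the median gene at 0 and 40 without the stress-led cluster. In cycling monocyte-like cells it went from 1 to 0 at 2-fold, 2 with no filter and 0 with the median gene at 0. Shares of all genes were taken only at 1.5-fold without that shift, so counts at the other settings have none beside them. The shift itself depends on which genes passed the filter on UMIs, as given above.

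Some smaller share differences changed sign. The macrophage cluster of library 2, whose markers go against its name, over microglia-like cells became -0.146 without the abundant genes and -0.276 when thinned. The whole neutrophil-like cluster over monocyte-like cells in library 2 became 2.15 without the abundant genes. Non-classical over other monocyte-like cells in library 2 became 2.62 with cells named one by one. From library 2 to 3, monocyte-like cells became -0.192 with doublets kept and -0.969 without the abundant genes, and non-classical-monocyte-like cells -0.215 at resolution 1.0 and -2.42 with cells named one by one. The cause was not tested. The alternatives that leave out a stress-led or cell-cycle-led cluster, or cells by dendritic markers, were chosen after seeing the data. The pooled share of 19.4% was 24.1%, 17.0% and 18.5% without library 1, 2 or 3. Under the alternatives 1223 log2 ratios of named members stayed inside the counting interval of the reported value and 184 did not. Share differences were less steady. For those given first in this section, 10 values stayed inside the counting interval and 25 did not. For the other share differences 51 stayed inside it, 127 moved out and 8 more changed sign. All 3 alternatives of the pooled share moved out of its interval. Depth limits classes under 20 cells and members such as Rpl3l and Rpl39l.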

Other observations

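Rpl22l1, a paralog of Rpl22 outside the symbol rule, was at 1234 CPM in monocyte-like cells of library 3 and 620 CPM in those of library 2. NK-like cells of libraries 2 and 3 had 1277 and 1193 CPM, and the migratory-dendritic-like cells of library 2 had 397 CPM.

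Some clusters were too small to name. In 12 cells led by Ttr and Enpp2 the members took 7.54% of UMIs and in 7 cells led by Mcpt8 they took 16.2%. Mitochondrial counts were 4.68% and 0.924% in the median cell of these clusters.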
